A study of Mus musculus with 6 samples.

Results

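The nucleolar ribosome assembly factors are the proteins that modify, fold, cut and package ribosomal RNA in the nucleolus. They were chosen as a named set of 44 genes, each matched to probe sets that carry its symbol alone, and each read from whichever of them was brightest on average over the 6 arrays. All 44 were measured, among 18193 genes with such a probe set. The arrays measured transcripts of blood stem cells of the long-term kind (LT-HSCs). Mice aged 8 weeks on a mixed background gave the marrow, and the gate of the sort was Lin-Sca1+CD150+CD48-. The double knockout (dKO) group carried MxCre with c-myc flox2 and N-myc flox2. The control group carried the same pair of floxed genes without MxCre (the label of control replicate 2 writes M-Myc in place of N-myc). Mx promoters respond to interferon, so the recombinase is not limited to stem cells. Both groups were given pI-pC, a synthetic double-stranded RNA that induces interferon, in 2 daily doses, and marrow was taken 3 days after the last one. Each group had 3 arrays, and each array was a separate pool of 3 dKO or 2 control mice. The comparison asks how the 44 transcripts differ in stem cells between dKO and control pools, step by step along ribosome assembly. Only the dKO group carried MxCre, and its pools held more mice. Loss of the Myc genes therefore cannot be told apart from presence of the recombinase or from pool size.

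Ribosome assembly starts in the nucleolus, where RNA polymerase I makes a long precursor RNA. Small nucleolar ribonucleoproteins (snoRNPs) are guided along it by their RNA: box C/D particles methylate riboses and H/ACA particles convert uridine to pseudouridine. The small subunit processome, built around the U3 snoRNP, folds and cuts the part that becomes the small subunit. A separate series of factors builds the large subunit. Many of these genes are textbook targets of Myc, which raises ribosome production in growing cells.

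The deleted genes were checked first. Myc values were 10.40, 10.57 and 10.11 in the control arrays (log2 RMA values, a scale on which 1 unit is a factor of 2) and 7.28, 7.77 and 7.24 in the dKO arrays, a difference of -2.93 ± 0.20 (standard error, SE; limma adjusted p = 0.00137). The representative Mycn probe set differed by -1.61 ± 0.22 (adjusted p = 0.00938), and a second one by -7.35 ± 0.18 (adjusted p = 2.34e-05), with a dKO mean of 3.46, a level that negative control probe sets (2.13 to 3.92) also reach. The remaining Mycn probe set, dim at 4.40 in control and 4.32 in dKO arrays, differed by -0.08 ± 0.18 (adjusted p = 0.858). Over the array, 6.99% of 45037 probe sets passed an adjusted p of 0.05. The stem cell marker Slamf1, which encodes CD150, was at 9.16 in control and 9.24 in dKO arrays, whereas Cd48, whose protein the sort excludes, rose from 8.25 to 9.41 (adjusted p = 0.0214). Of 8 measured stem cell markers 3 fell (Tek, Hlf and Kit) and 1 rose (Gata2). Summed signals of marker lists, as log2 of the sum, were 11.66 to 11.89 (control) and 12.81 to 13.49 (dKO) for 8 megakaryocyte and platelet genes (3 rose, 1 fell), 9.12 to 9.24 and 8.17 to 8.74 for 7 erythroid genes (1 fell), and 7.95 to 8.23 and 8.48 to 8.74 for 8 macrophage genes (2 rose). They overlapped between groups for granulocyte and monocyte, T and NK, and B cell genes. None of these 11, 9 and 7 genes passed limma (2, 1 and 0 at an unadjusted p of 0.05). Median differences were -0.59 (10 below 0, 1 above), 0.26 (2 below, 7 above) and 0.19 (2 below, 5 above). Granulocyte and monocyte sums spread from 11.31 up to 12.24 (control) and from 10.96 up to 11.67 (dKO). With that spread, a lower level of the granulocyte and monocyte genes cannot be told apart from no change. Sums also overlapped for 11 proliferation markers. None of those passed (0 of the 11 at an unadjusted p of 0.05), and their median difference was 0.01. Control probe sets at the 3' end of Gapdh exceeded those at its 5' end, which tracks RNA quality, by 2.12 to 2.36 in the control group and by 2.39 to 2.47 in the dKO group. For actin the same measure overlapped, at 0.10 to 0.23 and 0.20 to 0.21. The part of these shifts in the results below was not tested, and in bulk RNA a change in cell types cannot be told apart from a change in RNA per cell. Arrays were scaled to each other, so all differences are relative to the other transcripts.

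Transcripts of the assembly factors were mostly lower in dKO cells, and those that fell came from the snoRNP core, the small subunit processome and large subunit assembly. Of the 44 genes, 11 fell and 0 rose past a limma adjusted p of 0.05, beside 3.56% of all 18193 genes that fell and 4.49% that rose. At an unadjusted limma p of 0.05, 25 were lower and 2 higher (Pno1 and Rrp12), beside 1964 lower and 2232 higher of the 18193. The median log2 difference was -0.40, against 0.01 over all genes, and 39 of the 44 differences were below 0, beside 49.3% of all genes. In 27 of the 44 every dKO array lay below every control array, beside 14.2% of all genes, and in 1 every dKO array lay above, beside 15.8%. Because these genes are brighter than most, the share that fell among the 9096 genes above the median level, 5.49%, is the nearer background. In 1764 of those 9096 every dKO array lay below every control array, and in 2195 every dKO array lay above. By step, 5 of 8 snoRNP core genes fell (median -0.75), 3 of 18 small subunit processome genes (median -0.27), 3 of 15 large subunit assembly genes (median -0.36) and 0 of 3 nucleolar organisers (median -0.33, 2 lower at an unadjusted p of 0.05). The differences between steps are described and were not tested. The 44 genes and their steps were chosen with earlier results of these data known. The shares beside all genes therefore describe the set and do not test it. Leaving out control replicate 1 or 2 or dKO replicate 1 or 3 gave 4 genes that fell, leaving out control replicate 3 gave 7 and leaving out dKO replicate 2 gave 8, all of them among the 11.

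**Figure D1:**
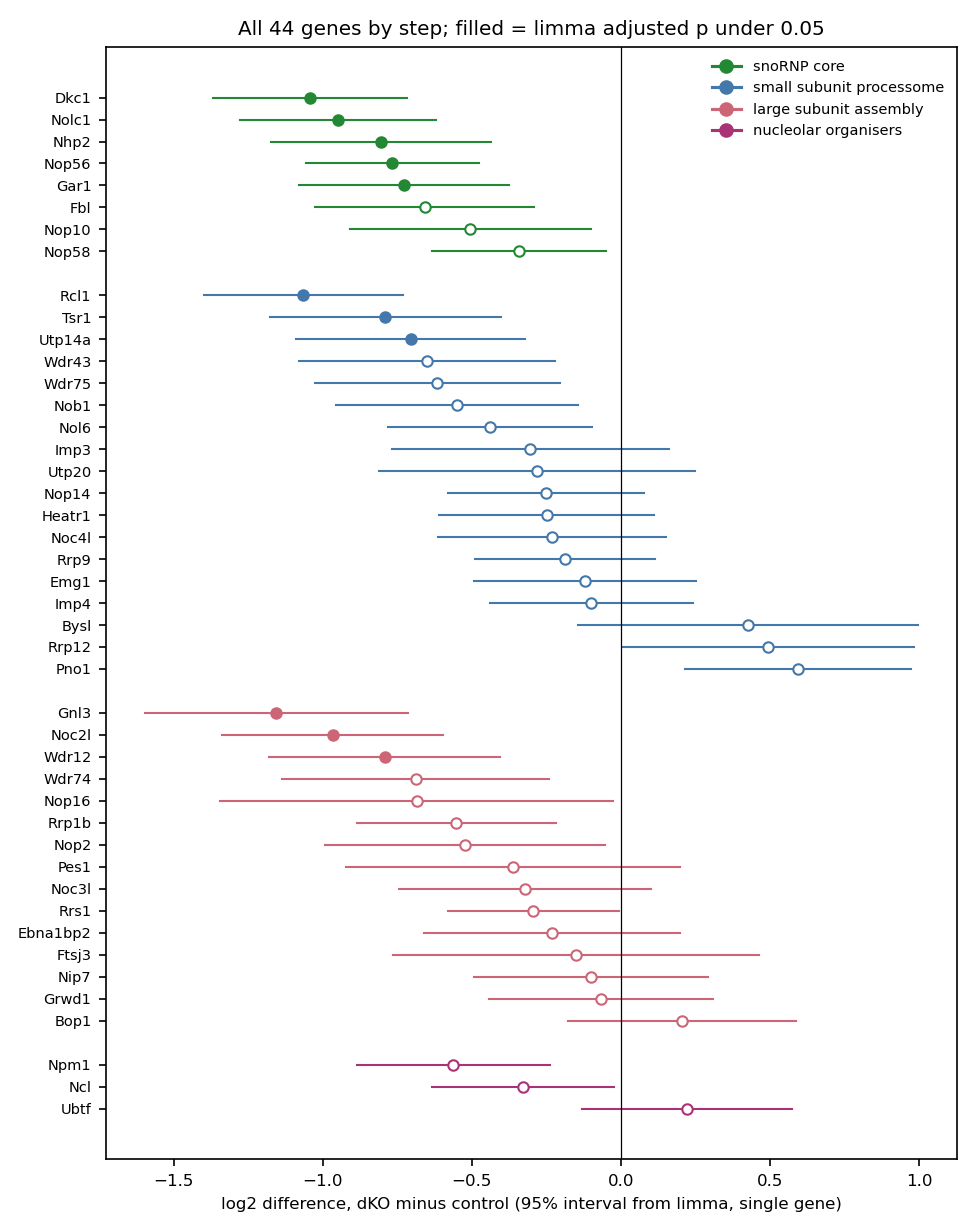
Log2 difference between dKO and control arrays (x axis) for each of the 44 genes, grouped by step, with the 95% interval of the single gene from limma (n = 3 arrays per group). Filled points are the 11 genes past an adjusted p of 0.05, all of them to the left of 0, and 39 of the 44 points lie there.

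Of the snoRNP core genes, 3 of the 4 that encode the H/ACA particle fell. Dkc1 encodes dyskerin, the pseudouridine synthase of the particle, which also belongs to telomerase. Its values were 10.37, 10.39 and 10.55 in the control arrays and 9.24, 9.44 and 9.49 in the dKO arrays, so the groups did not overlap. This is a 2.06-fold decrease (log2 difference -1.04 ± 0.14 SE, limma adjusted p = 0.00847). The 2 other Dkc1 probe sets also fell, by 0.74 and 0.76 on the log2 scale. Nhp2, an RNA-binding protein of the same particle, was at 9.25, 9.56 and 9.14 in control and 8.40, 8.56 and 8.57 in dKO arrays. Every dKO array was below every control array, and Nhp2 fell by 0.80 ± 0.16 (adjusted p = 0.0282), with a second probe set falling by 0.88. Gar1, the subunit that helps release the modified RNA, was at 11.13, 10.96 and 10.77 in control and 10.10, 10.33 and 10.25 in dKO arrays. It fell by 0.73 ± 0.15 (adjusted p = 0.0331), and the spread among its control arrays was the larger of the 2 groups. Nop10, the smallest protein of the particle, had values of 10.52, 11.04 and 10.82 in control and 10.18, 10.42 and 10.27 in dKO arrays. Its groups did not overlap, but the difference of -0.50 ± 0.17 did not pass (adjusted p = 0.143). No set of 5 arrays kept the Gar1 call (adjusted p up to 0.105), and Nhp2 kept its call only in the absence of control replicate 3 (adjusted p up to 0.0919 otherwise).

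Of the 3 box C/D genes 1 fell, and the snoRNP chaperone Nolc1 fell as well. Nop56, a scaffold of the particle, was at 11.16, 11.21 and 11.23 in control and 10.41, 10.52 and 10.37 in dKO arrays. These are tight groups with no overlap, and Nop56 fell by 0.77 ± 0.12 (limma adjusted p = 0.0156), while a second probe set fell by 0.63. Its paralogue and partner Nop58 was at 10.56, 10.65 and 10.51 in control and 10.19, 10.28 and 10.22 in dKO arrays. The groups were again apart, but the difference of -0.34 ± 0.12 did not pass (adjusted p = 0.166). Whether Nop56 and Nop58 differ in their response was not tested. Fbl, fibrillarin, the methyltransferase itself, had control values of 10.64, 10.51 and 10.30 and dKO values of 9.69, 10.00 and 9.78. That difference of -0.66 ± 0.16 lay just outside the threshold (adjusted p = 0.0528), whereas a second Fbl probe set fell by 0.82 (adjusted p = 0.0305). Nolc1, a phosphoprotein that chaperones both kinds of particle, was at 9.54, 9.45 and 9.52 in control and 8.42, 8.74 and 8.50 in dKO arrays. It fell by 0.95 ± 0.14 (adjusted p = 0.0117). Of the 2 other Nolc1 probe sets, 1 differed by -1.24 (adjusted p = 0.0994) and 1 by -0.05 (adjusted p = 0.885), so the size of the Nolc1 fall rests on the probe set read. The Nop56 call was lost without control replicate 2 or dKO replicate 1 or 3 (adjusted p up to 0.0575). For the step as a whole, leaving out control replicate 1 or dKO replicate 2 gave 3 genes that fell, leaving out control replicate 2 or either other dKO array gave 2, and leaving out control replicate 3 gave 4.

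**Figure D2:**
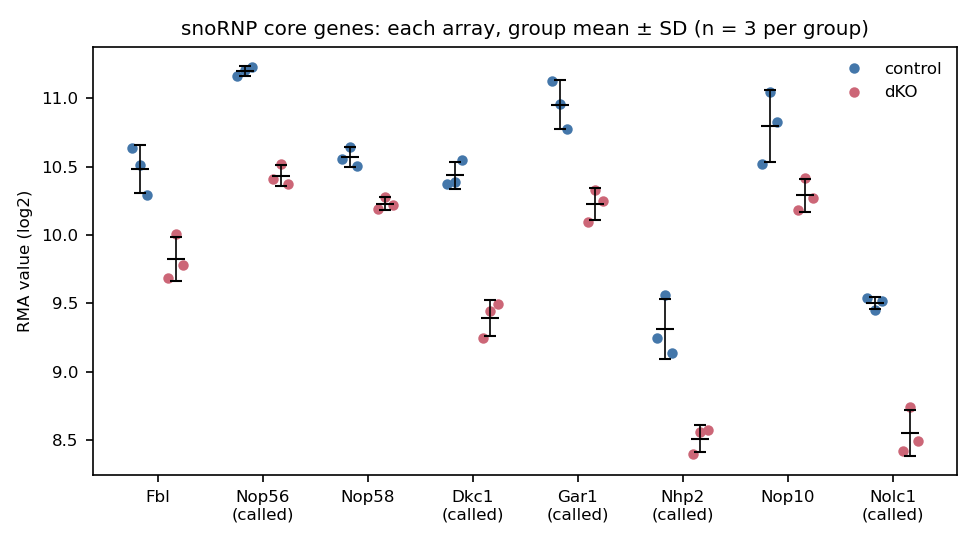
RMA values (log2, y axis) of the 8 snoRNP core genes in each control (blue) and dKO (red) array, with the group mean and SD (n = 3 per group). In each of the 8 genes all dKO points lie below all control points, and the gap is widest for Dkc1 and Nolc1. Heights of different genes are not comparable, since each probe set has its own response.

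Genes of the small subunit processome step were more mixed. The step counts 5 late small subunit factors with the processome, Tsr1 among them. Its 3 differences above 0 all belong to such late factors (Pno1, Rrp12 and Bysl). Rcl1, an RNA cyclase-like protein of the processome, had the largest difference of the step. Its control values were 7.69, 7.68 and 7.79 and its dKO values 6.46, 6.79 and 6.71, which do not overlap. That is a 2.09-fold decrease (log2 difference -1.06 ± 0.14 SE, limma adjusted p = 0.00868). Tsr1, a GTPase-like protein of late small subunit precursors, was at 10.04, 9.98 and 10.24 in control and 9.21, 9.55 and 9.12 in dKO arrays. It fell by 0.79 ± 0.17 (adjusted p = 0.0346), and a second probe set differed by -0.74 (adjusted p = 0.0528). Utp14a, which activates the helicase that removes U3, was at 8.91, 8.88 and 8.86 in control and 7.97, 8.47 and 8.09 in dKO arrays. The dKO arrays were the more spread here, and the fall of 0.70 ± 0.16 was just past the threshold (adjusted p = 0.0484). Without any 1 array other than dKO replicate 2, the Tsr1 and Utp14a calls were lost (adjusted p up to 0.108 and 0.135), which left Rcl1 as the only gene of the step that fell.

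Of the early UTP-A factors, which load first on the precursor, Wdr43 differed by -0.65 and Wdr75 by -0.62, with adjusted p of 0.0854 and 0.0882. Both had groups that did not overlap, and a second Wdr43 probe set fell by 0.91 (adjusted p = 0.0402). Heatr1, the other UTP-A protein among the 44 genes, differed by -0.25 (adjusted p = 0.418). Its dKO values of 7.83, 7.82 and 7.61 overlapped the control range of 7.81 to 8.19. Nob1, the endonuclease that forms the end of the mature small subunit RNA, differed by -0.55 (adjusted p = 0.114), and Nol6 by -0.44 (adjusted p = 0.130). Of the proteins that sit on U3 itself, the U3-specific Rrp9 differed by -0.19, with every dKO array below every control array, and Imp3 and Imp4, which help U3 pair with its target, by -0.30 and -0.10, all with adjusted p of 0.445 or more. The methyltransferase Emg1 (-0.12) and the processome proteins Nop14 (-0.25), Noc4l (-0.23) and Utp20 (-0.28) likewise did not pass. Their intervals all reached above 0, and that of Utp20 ran from -0.81 to 0.25, so these arrays do not tell a difference as large as that of Tsr1 from none for this gene.

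Late small subunit factors differed in both directions. Of the 5 among the 44 genes, Tsr1 fell, Nob1 was lower without passing, and Pno1, Rrp12 and Bysl were higher without passing. Pno1, which guides Nob1, was at 5.98, 6.31 and 6.17 in control and 6.96, 6.63 and 6.65 in dKO arrays. It was the one gene of the 44 with every dKO array above every control array, and its difference was 0.59 ± 0.16 (limma adjusted p = 0.0775). Rrp12, an export factor, differed by 0.50 ± 0.21 (adjusted p = 0.226), with dKO values of 6.61, 6.48 and 7.07 against 6.51, 6.09 and 6.07. Bysl, bystin, differed by 0.43 ± 0.24 (adjusted p = 0.373), with a second probe set at 0.45. In both Rrp12 and Bysl the highest control array, control replicate 1, lay within the dKO range. When only probe sets above the median level were tested, or when the mean of all probe sets was tested over genes, Pno1 passed (adjusted p down to 0.0404).

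In large subunit assembly, Gnl3 changed most. Gnl3 encodes nucleostemin, a nucleolar GTPase abundant in stem and dividing cells. Its values were 9.65, 9.94 and 9.27 in control and 8.51, 8.43 and 8.46 in dKO arrays. The 3 dKO arrays were nearly equal while the control arrays were spread, and the decrease was 2.23-fold (log2 difference -1.16 ± 0.19 SE, limma adjusted p = 0.0158). Noc2l, which escorts early large subunit precursors, was at 10.33, 10.29 and 10.27 in control and 9.53, 9.39 and 9.07 in dKO arrays. It fell by 0.97 ± 0.16 (adjusted p = 0.0159), and its second probe set by 0.69 (adjusted p = 0.0378). Noc3l, its partner, differed by -0.32 (adjusted p = 0.366), with dKO values of 7.04, 7.52 and 7.32 of which the highest lay above the lowest control value, 7.42. Leaving out control replicate 1 or any of the dKO arrays ended the Gnl3 call (adjusted p up to 0.0572), and leaving out control replicate 1 or 2 the Noc2l call (up to 0.0553).

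The 3 proteins of the PeBoW complex, which is needed to process the internal spacer of the large subunit precursor, were not all called: 1 fell, 1 was lower without passing and 1 was slightly higher. Wdr12 was at 9.78, 9.49 and 9.58 in control and 8.74, 9.08 and 8.67 in dKO arrays. It fell by 0.79 ± 0.16 (adjusted p = 0.0339), and another of its probe sets fell by 1.24. Its remaining probe set, at group means of 2.26 and 2.10, was no brighter than the negative controls. Pes1, with control values of 9.26, 8.80 and 8.39 and dKO values of 8.25, 8.47 and 8.65, overlapped between groups, and its difference of -0.36 ± 0.24 did not pass (adjusted p = 0.450). Bop1, at 6.87, 7.20 and 7.34 in control and 7.33, 7.25 and 7.44 in dKO arrays, had a difference of 0.21 ± 0.16 (adjusted p = 0.538). Whether the 3 differ from each other was not tested. Wdr12 kept its call only in the absence of dKO replicate 2 (adjusted p up to 0.107 for the other sets of 5 arrays). For the step, 0 genes fell without control replicate 1, 1 in the absence of control replicate 2, dKO replicate 1 or dKO replicate 3, and 2 in the other 2 cases.

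Other large subunit factors were lower without passing. Wdr74 (-0.69, adjusted p = 0.0819), Rrp1b (-0.55, adjusted p = 0.0667), Nop16 (-0.68, adjusted p = 0.215) and the RNA methyltransferase Nop2 (-0.52, adjusted p = 0.185) had groups that did not overlap. Nop16, whose dKO values of 6.59, 6.45 and 5.55 were spread by dKO replicate 3, fell by 1.23 in a second probe set (adjusted p = 0.0184). Likewise 1 of the 2 other Rrp1b probe sets fell, by 0.92 (adjusted p = 0.0169). Rrs1, which brings in the RNP of the smallest ribosomal RNA, differed by -0.29 in its representative probe set and by 0.03 in the other. Grwd1 (-0.07), Nip7 (-0.10), the methyltransferase Ftsj3 (-0.15) and Ebna1bp2 (-0.23) had groups that overlapped. The Ftsj3 control arrays lay between 8.60 and 8.71 while dKO replicate 2, at 9.12, stood above and the other 2 dKO arrays below, at 8.14 and 8.24.

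Of the nucleolar organisers, Npm1 and Ncl are among the most abundant proteins of the structure. Npm1, nucleophosmin, which shuttles subunits and shapes the outer nucleolus, was at 13.02, 12.97 and 13.12 in control and 12.34, 12.63 and 12.45 in dKO arrays. The groups did not overlap, and the difference of -0.56 ± 0.14 narrowly missed (limma adjusted p = 0.0585). Its other probe set fell by 0.95 ± 0.13 (adjusted p = 0.00838). Ncl, nucleolin, was at 12.21, 12.23 and 12.28 in control and 12.00, 11.78 and 11.96 in dKO arrays, a difference of -0.33 ± 0.13 (adjusted p = 0.200). All 5 Ncl probe sets were lower, by 0.33 to 0.78, and 1 of them, with a difference of -0.78, fell past the threshold (adjusted p = 0.0226). Representative Npm1 and Ncl probe sets are the brightest of the 44, where array signals can saturate. Ubtf, the factor that holds ribosomal DNA open for RNA polymerase I, differed by 0.22 ± 0.15 (adjusted p = 0.462), and its control values of 8.55, 8.80 and 8.40 reached into the dKO range of 8.76 to 8.86.

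Over all 86 probe sets of the 44 genes, 76 had a negative difference, beside 51.2% of all 45037 probe sets, 23 fell, beside 3.41%, and 0 rose, beside 3.57%. Of the 29 genes with more than 1 probe set, 25 had all of them on the same side of 0. The exceptions were Imp4, Bop1, Rrs1 and Ebna1bp2, none of which had a called probe set. Counting any probe set, 17 of the 44 genes had at least 1 that fell: the 11 above and Fbl, Wdr43, Nop16, Rrp1b, Ncl and Npm1. This count has no background beside it, because genes with more probe sets have more chances.

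The arrays of a group were not equally far from the other. As the median deviation of the 44 genes from their control means, dKO replicate 1 stood at -0.53, dKO replicate 3 at -0.41 and dKO replicate 2 at -0.34. For 26 of the 44 genes dKO replicate 2 was the highest of the 3 dKO arrays, and for 21 dKO replicate 1 was the lowest. Control arrays stood between -0.03 and 0.03. For the 8 snoRNP core genes the medians were -0.82, -0.65 and -0.72 in dKO replicates 1 to 3, and all 8 were below the control mean in every dKO array. That was true of 12 of 18 processome genes, 10 of 15 large subunit genes and 2 of 3 organisers.

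**Figure D3:**
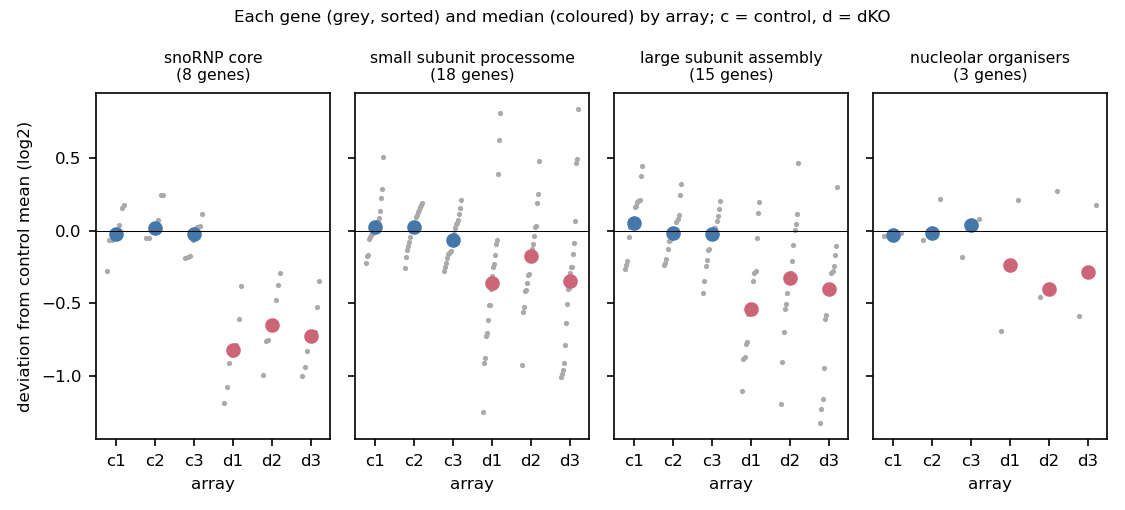
Deviation of each gene from its own control mean (log2, y axis) in each array (x axis), by step. Grey points are genes, sorted within each array, and coloured points the median (blue control, red dKO). The snoRNP core lies below 0 in every dKO array, while the other steps hold points on both sides.

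The pathway beyond these 44 genes was described from lists drawn up by known role. Of 83 other assembly factors measured, 4 fell and 0 rose (3 higher and 19 lower at an unadjusted p of 0.05), with a median of -0.19. The 4 that fell are 4.82% of the list, near the 3.56% of all genes and below the 5.49% of the brighter ones. At the unadjusted p, 1964 of all 18193 genes were lower and 2232 higher. Of the 83 differences, 56 were below 0, beside 49.3% of all genes. In 23 of the 83 every dKO array lay below every control array, and in 6 above, beside 14.2% and 15.8% of all genes. Among the 9096 brighter genes these counts were 1764 and 2195. By step, 1 of 10 other snoRNP factors fell (median -0.43), 2 of 35 other small subunit factors (median -0.10) and 1 of 38 other large subunit factors (median -0.21). Naf1, which assembles H/ACA particles before Gar1 takes its place, was at 7.39, 7.29 and 7.02 in control and 6.19, 6.63 and 6.10 in dKO arrays. It fell by 0.93 ± 0.19 (limma adjusted p = 0.0319). Nop53, which links late large subunit precursors to the exosome and had been listed here with the small subunit, fell by 1.44 ± 0.13 (adjusted p = 0.00298). Its control arrays lay between 11.00 and 11.15 and its dKO arrays between 9.49 and 9.74. Nat10, an RNA acetyltransferase, fell by 0.83 and Nsa2, a large subunit factor, by 0.91. The list count was 2 on leaving out any 1 array other than dKO replicate 2.

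Upstream, 2 of 15 RNA polymerase I genes fell (median -0.30): Polr1b, a core subunit, by 1.11 ± 0.21 (limma adjusted p = 0.0250), and Twistnb, another subunit of the enzyme, by 0.79 ± 0.12 (adjusted p = 0.0143). Leaving out 1 array gave 0 without control replicate 2 or dKO replicate 1, and 1 otherwise. Downstream, 24 of the 44 measured cytosolic ribosomal protein genes, out of 79 listed, fell (median -0.66, 0 higher), which with 1 array left out was 11 to 17, the lowest without dKO replicate 1. Of the 44, 2 (Rps16 and Rpl37) had control means within the negative control range, without which the median was -0.71, and 36 had control means in the brightest 1% of all probe sets (above 11.54), where array signals can saturate. The snoRNP core median of -0.75 lay beside that of the ribosomal proteins, and the medians of the processome and large subunit genes lay beside that of the polymerase I genes. These medians are set side by side and their differences were not tested.

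**Figure D4:**
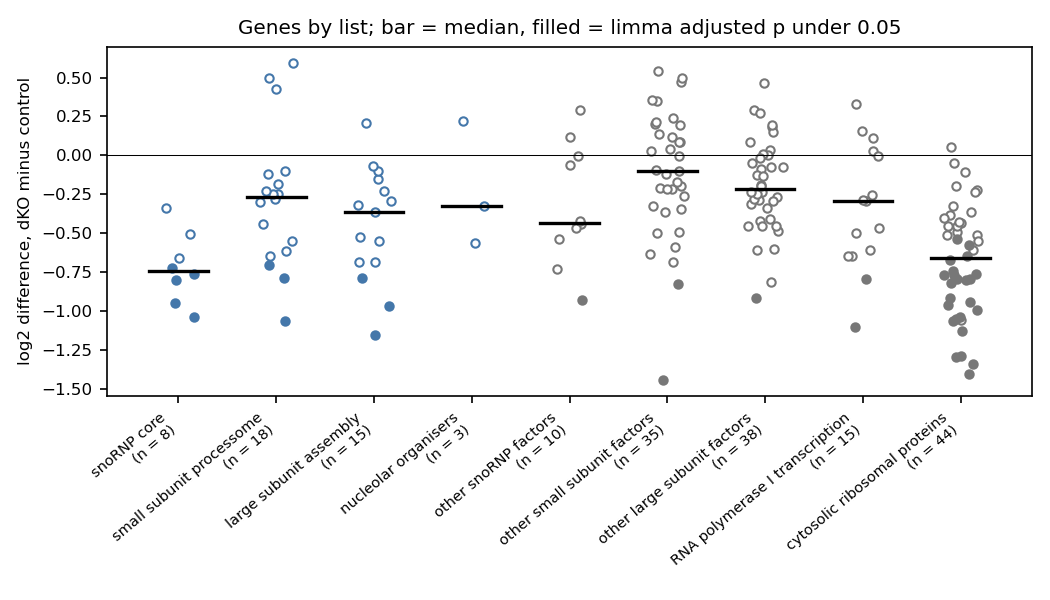
Log2 difference between dKO and control arrays (y axis) for the genes of each step (blue) and of the related lists (grey), with the median as a bar and genes past an adjusted p of 0.05 filled. The snoRNP core (8 genes, median -0.75) and the ribosomal proteins (44 genes, median -0.66) sit lowest, and points above 0 are seen in most of the other lists.

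Myc with its partner Max binds the E-box, the letters CACGTG, which read the same on both strands, and also binds related sequences such as CACGCG. RefSeq promoter windows (assembly GRCm38.p6), from 250 bases before to 50 after an annotated start, were found for 38 of the 44 genes; Bop1, Fbl, Nol6, Npm1, Rrp12 and Rrs1 were not matched. On either strand, 8 of the 38 (21.1%) held CACGTG in at least 1 window, against 10.2% of 14452 measured genes and 12.2% of the 8181 that have a window with 16 or more CG pairs. The 38 were not held to that minimum, so the share of the 8181 is not on the same footing. The windows of Pes1 (9 CG pairs) and Utp20 (12), which hold CACGTG, fall below it. The variant CACGCG, also searched on both strands, does not overlap a full E-box; 10 of the 38 (26.3%) held it, against 16.2% and 25.4%. The E-box sites are shown with the bases around them because they are the letters at which Myc and Max bind, in genes with every kind of response. Each is written on the strand of its gene with the motif in capitals, and the stretches of Pno1 and Utp20 end with the window.
Tsr1: cttggtgcaCACGTGgactgcaga
Wdr43: ccgggcgaaCACGTGgctgccgcg
Nop2: tccctggatCACGTGtgttccggt
Pes1: taggcagggCACGTGcgggaggaa
Utp20: cactaactaCACGTGaggaaaa
Imp4: gtcttagacCACGTGacatcccaa
Grwd1: ccggagtcgCACGTGtgaaaccgg
Pno1: acaaccacgCACGTGttcctct
The Tsr1 stretch is chr11:74898095-74898118 on the plus strand, 25 bases after the start, and that of Wdr43 is chr17:71616223-71616246 on the plus strand, 18 bases after it. In Pes1 (chr11:3963968-3963991, plus) the motif begins at base 3 after the start, in Utp20 (chr10:88826765-88826786, minus) and Pno1 (chr11:17211540-17211561, minus) at base 38 and in Grwd1 (chr7:45830741-45830764, minus) at base 35. Only Nop2 (chr6:125131814-125131837, plus) and Imp4 (chr1:34439699-34439722, plus) hold it upstream, 60 and 121 bases before the start. A motif downstream of the start lies within the transcribed gene.

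Genes that fell were found both with and without the E-box in this window. Of the 8 genes with CACGTG, Tsr1 fell, and the median difference of the 8 was -0.32; of the 30 without it 10 fell, with a median of -0.53. With CACGCG, 4 of 10 fell (median -0.59), against 7 of 28 without (median -0.33). No test was made of either split, and a motif outside the window would not be seen. The 4 genes that fell and hold CACGCG are Nhp2, Nolc1, Utp14a and Noc2l, shown because they include a snoRNP protein and the snoRNP chaperone.
Nhp2: ggcggcggcCGCGTGgttcctcta
Nolc1: ggatgatgaCGCGTGtgggaccgg
Utp14a: gcgttgtcgCGCGTGattagcgga
Noc2l: agtgcggcgCACGCGgctgggcgc
Their positions are chr11:51619767-51619790, chr19:46075813-46075836, chrX:48256835-48256858 and chr4:156236018-156236041, all on the plus strand. In Nhp2 the motif begins 4 bases after the start and in Nolc1 25 bases before it. Noc2l has 2 annotated starts with the same site 18 and 13 bases after them. Dkc1, the marker of the set, held neither motif in its window (chrX:75095604-75095903, plus strand), printed whole because it had the largest difference of the snoRNP core.
Dkc1: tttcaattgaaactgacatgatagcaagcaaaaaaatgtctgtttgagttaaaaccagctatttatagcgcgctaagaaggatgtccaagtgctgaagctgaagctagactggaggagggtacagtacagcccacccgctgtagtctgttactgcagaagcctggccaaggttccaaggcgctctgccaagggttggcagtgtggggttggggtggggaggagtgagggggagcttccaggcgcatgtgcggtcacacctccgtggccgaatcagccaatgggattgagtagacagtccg

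**Figure D5:**
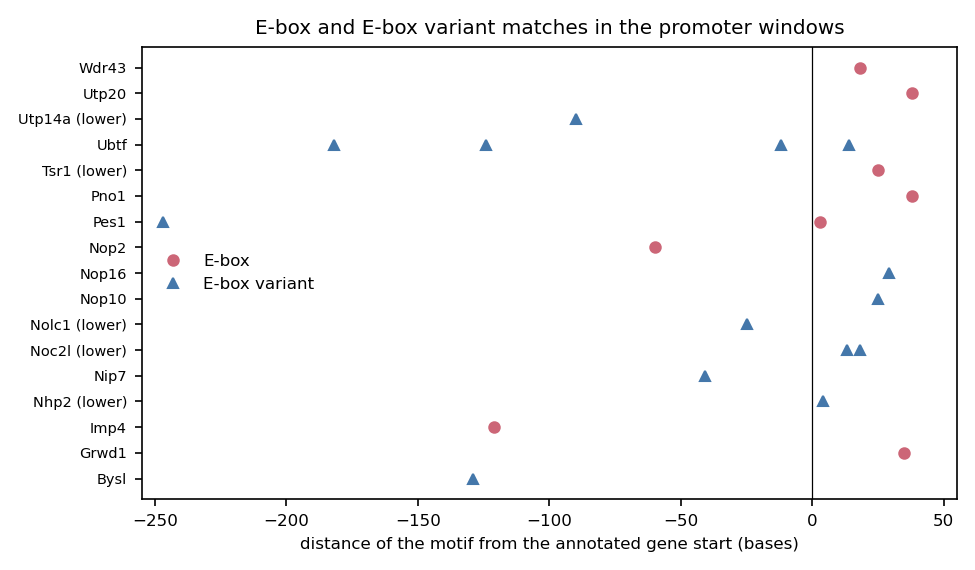
Position of CACGTG (circles) and CACGCG (triangles) relative to the annotated start (x axis, bases) in the promoter windows of the genes that hold one, with the genes that fell marked "lower". Of the 8 genes with CACGTG, 6 hold it after the start, and among the genes that fell Tsr1 alone holds it.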

How the data were processed

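Total RNA from the sorted cells was purified with Trizol, amplified over 2 rounds and labelled with biotin, per the labels' protocols. The deposited values are log2 RMA expression values per probe set, credited to RMA in the submitters' processing notes. How RMA was set up is not given in the sources used here. They ran from 1.49 to 13.85 and are normalized between arrays, so a change in total RNA is not seen. The number of arrays limits precision.

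Groups came from the sample titles. Each of 45037 non-control probe sets was fitted with limma 3.58.1 (R 4.3.3; lmFit, eBayes), dKO minus control, and p-values were adjusted over all of them by Benjamini-Hochberg at 0.05. Probe sets were named through the platform annotation table: 34945 had 1 symbol, 932 several and 9160 none. On simulated data of 45037 probe sets, 200 of them changed, the fit recovered 31% at a log2 change of 1 and 78% at 2, and made 4 false calls. P-values measure the spread between pools of mice. Alternatives changed the scaling, the level filter, the prior, array weights, a replicate block, the choice of probe set and the arrays included.

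The 44 genes, their steps and the other lists were chosen with earlier results of these data known. Genes named are those past the threshold, all of the box C/D, H/ACA and PeBoW complexes and the organisers, and in each step the largest and smallest differences that missed it; the others are given to account for every gene, and Cd48 was added after its value was seen. Sequences are from RefSeq (GRCm38.p6).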

Additional observations from a re-analysis of the deposited data

How the results depend on the processing

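The direction of the difference was kept by 40 of the 44 genes in all 14 alternatives, and Dkc1, Nolc1 and Rcl1 passed the threshold in each. With 1 array left out, which leaves fewer degrees of freedom, 4 to 8 of the 11 genes still fell, 2 to 4 in the snoRNP core, 1 to 3 in the processome and 0 to 2 in the large subunit, with 2 to 4 other assembly factors, 11 to 17 ribosomal proteins, 0 to 1 polymerase I genes and 1338 to 1674 of all probe sets, against 3146. Differences that crossed 0 were those of Ftsj3 (-0.46 to 0.032), Nip7 (-0.22 to 0.023) and Grwd1 (-0.17 to 0.0048), and that of Rrs1 without shared-sequence probe sets (0.034).

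With the filter on level, 17 genes fell and 1 rose, 5 processome and 5 large subunit genes and 8 other factors among those that fell; fewer probe sets were tested there. The trended robust prior gave 17 and 9 other factors. The mean of all probe sets gave 18 lower and 1 higher, 7 large subunit genes, 7 other factors, 4 polymerase I genes, a median of -0.50 and 2041 calls over 18193 genes. Quantile normalization, median centring, array weights and unshared probe sets gave 10 to 13. The cause of the other shifts was not tested.

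With the replicate block, 5 genes fell, 2 of the snoRNP core and 1 of the processome, with 2 other factors, 12 ribosomal proteins, 1 polymerase I gene and 1530 probe sets. Over all probe sets, samples with the same number did not deviate together (correlations of -0.02, 0.00 and 0.01). A correlation over all probe sets can miss genes that vary together, so it does not decide whether the numbers mark a pairing. The labels tie no number to a shared day or litter. Control means of the 44 representative probe sets, 6.15 or higher, all exceeded the highest negative control value, 3.92.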
